A study of Mus musculus with 18 samples.

Results

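The immediate early genes described here are Fos, Fosb, Jun, Junb, Egr1, Ier2, Ier3, Atf3, Dusp1 and Btg2, 10 of the 19057 genes named on an Illumina mouse bead array. They were chosen by name, and all probes annotated to them were taken, which gave 11 of 45281 probes, with 2 probes for Junb and 1 for each other gene. The arrays measured RNA of mouse germinal vesicle oocytes, fully grown oocytes still arrested in the first meiotic prophase, in 18 pools that made up 6 genotypes of 3 pools each. All oocytes came from XX females 4 weeks old of an MF1 outbred albino stock, collected 45 to 48 hours after PMSG, a gonadotropin that drives follicle growth. They were stripped of cumulus cells. A pool held about 100 of them and drew on 2 or more females, and its RNA was amplified before labelling. The genotypes XX,Zfy2+Eif2s3y, XX,Zfy2, XX,Zfy1-hi and XX,Zfy1-lo carried transgenes of Zfy1 or Zfy2, Y-chromosomal zinc finger genes that females lack. XX,Zfy2+Eif2s3y held a single-copy Zfy2 transgene in all cells and a multi-copy transgene of Eif2s3y, a Y gene for a translation initiation factor subunit, in a proportion of them, and its labels mark it as contaminated. XX,Zfy2 held the single-copy Zfy2 transgene, XX,Zfy1-hi a multi-copy and XX,Zfy1-lo a single-copy Zfy1 transgene. XX,Zfy2-nf, with a Zfy2 transgene that is not functional, and XX, with none, were the controls. The labels gave no promoter for the transgenes.

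Immediate early genes are transcribed within minutes of a signal, without new protein being made first, mostly through kinase cascades that act on the serum response factor and on cAMP-responsive factors already bound to their promoters. Fos, Fosb, Jun, Junb and Atf3 encode leucine zipper proteins that pair into AP-1 and related transcription factors, Egr1 encodes a zinc finger transcription factor, Dusp1 a phosphatase that switches MAP kinases off, Btg2 an antiproliferative protein that recruits mRNA deadenylases, Ier3 a regulator of cell survival, and Ier2 a small nuclear protein. In the ovary these genes are best known from granulosa and cumulus cells, where gonadotropins induce several of them, whereas the fully grown oocyte has largely stopped transcription and lives on stored RNA.

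Promoters from 250 bases before to 50 bases after the start site were taken from RefSeq on the mouse build GRCm38.p6 for 8 of the 10 genes. Those of Egr1 and Ier2 were not used here. Each was searched on both strands for the cAMP response element TGACGTCA, for its shorter core CGTCA, which the full element holds on both strands, for the AP-1 site TGANTCA, for the Egr site GCGNGGGCG, and for the CArG box bound by serum response factor. The promoters of Fos, Jun, Dusp1 and Btg2 are shown because Fos and Jun had values that moved together over arrays, while Dusp1 and Btg2 were detected on all arrays and held the full cAMP response element. Capitals mark exact matches to these motifs, and none was found in Jun. Sites that differ from the searched letters were not counted. Fos lies at chr12:85473640-85473939 on the plus strand, Jun at chr4:95052173-95052472, Dusp1 at chr17:26508423-26508722 and Btg2 at chr1:134079106-134079405, the last 3 on the minus strand.
Fos: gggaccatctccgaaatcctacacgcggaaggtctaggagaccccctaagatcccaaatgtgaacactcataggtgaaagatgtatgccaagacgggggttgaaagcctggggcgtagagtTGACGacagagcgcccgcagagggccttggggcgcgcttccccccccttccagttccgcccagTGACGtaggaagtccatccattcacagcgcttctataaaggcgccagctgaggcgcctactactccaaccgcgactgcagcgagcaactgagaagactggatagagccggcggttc
Jun: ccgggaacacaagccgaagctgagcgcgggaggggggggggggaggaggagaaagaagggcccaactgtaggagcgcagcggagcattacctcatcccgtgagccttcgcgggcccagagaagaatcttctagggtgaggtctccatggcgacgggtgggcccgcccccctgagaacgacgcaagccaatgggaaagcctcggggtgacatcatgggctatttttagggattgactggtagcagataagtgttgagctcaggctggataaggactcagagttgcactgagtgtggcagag
Dusp1: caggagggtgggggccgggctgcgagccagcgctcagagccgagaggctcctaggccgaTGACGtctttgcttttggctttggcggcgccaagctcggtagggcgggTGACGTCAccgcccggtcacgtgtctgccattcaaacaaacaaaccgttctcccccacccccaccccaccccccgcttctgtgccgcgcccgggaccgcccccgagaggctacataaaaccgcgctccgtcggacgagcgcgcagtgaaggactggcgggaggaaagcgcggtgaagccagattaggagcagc
Btg2: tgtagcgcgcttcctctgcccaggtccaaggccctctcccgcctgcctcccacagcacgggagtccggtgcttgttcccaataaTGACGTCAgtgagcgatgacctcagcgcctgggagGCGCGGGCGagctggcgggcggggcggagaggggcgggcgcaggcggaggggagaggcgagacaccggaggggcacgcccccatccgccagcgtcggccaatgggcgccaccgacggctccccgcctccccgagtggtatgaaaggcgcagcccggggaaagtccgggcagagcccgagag
The Fos window held the core at 2 places, both in reverse and so read as TGACG above, from positions -129 and -66 relative to the start site. The full element lay at positions -143 to -136 in Dusp1 and -166 to -159 in Btg2. It was present in 2 of 8 member promoters and in 1.79% of 32851 promoters. The core was present in 6 of 8, in Fos, Fosb, Junb, Atf3, Dusp1 and Btg2, against 20.8% of all promoters. The Egr site was found in Fosb and Btg2 (2 of 8, against 5.55%), and the AP-1 site (7.81% of all promoters) and the CArG box (1.63%) in 0 of 8. These matches describe letters in the window, and no binding was measured. Sites farther from the start site, and any site of Egr1 or Ier2, were not searched. A count of 0 therefore does not mean that these genes lack the element.

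The arrays lay on 3 slides in 2 labelled batches. Slides 1 and 2 were batch 1, with XX,Zfy2+Eif2s3y, XX,Zfy1-lo, XX,Zfy2-nf and XX, and slide 3 was batch 2, with XX,Zfy2 and XX,Zfy1-hi. All 3 XX,Zfy2+Eif2s3y arrays and replicate 3 of XX,Zfy1-lo, replicate 3 of XX,Zfy2-nf and replicate 1 of XX were on slide 2. The median bead signal before normalization was 68.9 to 75.1 in batch 2 and 89.8 to 115 in batch 1, 40.1 to 44.8% of probes were detected on an array (detection p under 0.05), and replicates correlated across probes at r = 0.967 to 0.987. The Zfy2 probe was detected on all 12 arrays with a functional Zfy1 or Zfy2 transgene and on 0 of 6 control arrays, one of the 2 Zfy1 probes on all 6 arrays of the Zfy1 genotypes and on 1 XX,Zfy2+Eif2s3y array, and one of the 2 Eif2s3y probes on the 3 XX,Zfy2+Eif2s3y arrays alone. The remaining probe of Zfy1 gave a detected signal on 18 of 18 arrays, and that of Eif2s3y on all 3 XX,Zfy2, all 3 XX,Zfy1-hi and 2 XX,Zfy2-nf arrays and on 0 XX,Zfy2+Eif2s3y arrays. All 14 oocyte markers on the array were detected on all 18 arrays, with a summed intensity of 42700 to 46784 in batch 2 and 49066 to 54015 in batch 1. Of 19 granulosa and cumulus markers on the array, 12 had a probe detected on at least 3 arrays, among them Cyp11a1, Nr5a2, Col4a1 and Kitl on all 18, while Ptx3, Star, Ereg and Btc were detected on 0 arrays. The summed intensity of the 12 was 853 to 1622 in XX,Zfy2+Eif2s3y, 810 to 998 in XX,Zfy2, 1182 to 1283 in XX,Zfy1-hi, 1254 to 1415 in XX,Zfy1-lo, 1236 to 1500 in XX,Zfy2-nf and 1152 to 1298 in XX, which puts all 3 XX,Zfy2 arrays below those of the other batch 2 genotype and replicate 1 of XX,Zfy2+Eif2s3y at the highest value of the series. Replicates 2 and 3 of XX,Zfy2+Eif2s3y, at 853.2 and 949.5, lay below every other batch 1 array. The brightest probes weigh most in the summed intensity, those of Cyp11a1 and Nr5a2, with mean log2 intensities of 8.393 and 8.325. Cyp11a1 averaged 7.18 in XX,Zfy2 and 8.87 in XX,Zfy1-hi, while the median change over the 18 probes of the list was 0.08. Beyond the correlations given for Fos and Jun, the part of granulosa and cumulus cells in the results below was not tested. In pooled oocytes fewer cells of a kind and less RNA per cell cannot be told apart.

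Values are background-corrected, quantile-normalized log2 intensities, and each probe is set only against itself. The 10 genes fell into 3 kinds. Egr1, Fosb, Dusp1 and Btg2 were detected on all 18 arrays. Ier3 was detected on 10 arrays, Fos on 9 and Jun on 5. Both Junb probes and the Atf3 probe were detected on 0 of 18 arrays, and the Ier2 probe on 1, replicate 2 of XX,Zfy2+Eif2s3y. These 4 probes stayed between 4.29 and 4.86, where the dimmest detected probe of an array lay at 4.78 to 4.94, and they were left out of the tests, which used the 23951 probes detected on at least 3 arrays.

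**Figure D1:**
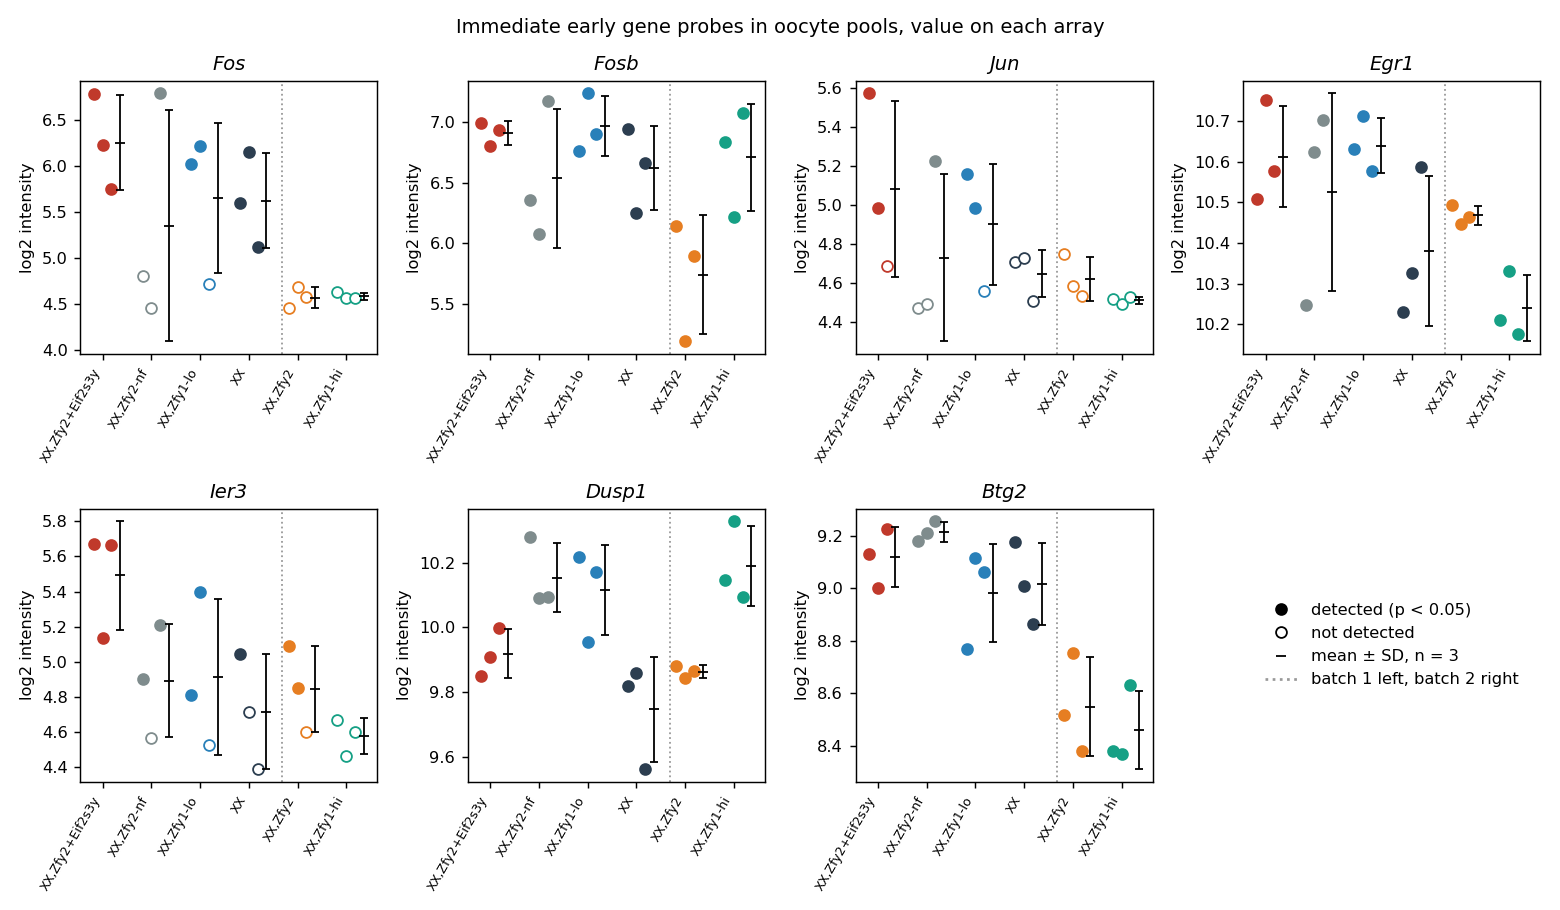
Log2 intensity of the 7 immediate early gene probes detected on at least 3 arrays, 1 point per array, by genotype, with filled points for detected and open points for undetected values and the mean ± SD of 3 arrays beside them. The dotted line parts batch 1 (left) from batch 2 (right). Fos points of batch 1 spread from 4.45 to 6.79, and all 6 batch 2 points are open.

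Fos, one of the partners in AP-1, had the widest spread among pools of the same genotype. It measured 6.79, 6.23 and 5.74 in XX,Zfy2+Eif2s3y, 6.02, 6.22 and 4.72 in XX,Zfy1-lo, 4.80, 4.45 and 6.79 in XX,Zfy2-nf and 5.59, 6.15 and 5.12 in XX, in the order of replicates 1 to 3. In batch 2 it measured 4.45, 4.68 and 4.57 in XX,Zfy2 and 4.63, 4.56 and 4.56 in XX,Zfy1-hi. It was detected on all 3 arrays of XX,Zfy2+Eif2s3y and of XX, on 2 of XX,Zfy1-lo, on 1 of XX,Zfy2-nf and on 0 of 6 in batch 2. The highest value of XX,Zfy2-nf equalled the highest of XX,Zfy2+Eif2s3y to 2 decimals while its other 2 arrays were undetected, so the batch 1 genotypes overlapped. The SD of Fos within genotypes, pooled over the 6, was 0.683, above that of 99.2% of the probes tested (median 0.232).

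Jun, the main partner of Fos, stayed near the detection limit. It measured 5.57, 4.98 and 4.69 in XX,Zfy2+Eif2s3y, 5.16, 4.98 and 4.56 in XX,Zfy1-lo, 4.47, 4.49 and 5.22 in XX,Zfy2-nf and 4.71, 4.73 and 4.51 in XX, and 4.49 to 4.75 on the 6 batch 2 arrays. The detected values were the 2 highest of XX,Zfy2+Eif2s3y, the 2 highest of XX,Zfy1-lo and the highest of XX,Zfy2-nf. Of the 6 arrays with the highest Fos values, from 6.02 upwards, Jun was detected on 5, the other being replicate 2 of XX, and it was detected on 0 of the other 12.

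Over the 12 batch 1 arrays Fos and Jun correlated at Pearson's r = 0.880 (permutation p = 0.0001, adjusted p = 0.0028 over 28 pairs) and Spearman's rho = 0.902 (permutation p = 0.00019, adjusted p = 0.00532). The 28 pairs were those among the 7 tested genes and between each gene and the granulosa and cumulus sum. Without the 2 arrays farthest from the median of Fos, r was 0.886 over 10 arrays. Within slide 1 it was 0.827 (exact permutation p = 0.0583, n = 6) and within slide 2 0.902 (exact permutation p = 0.0194, n = 6). After each genotype's mean was subtracted it was 0.895, so the relation lay among pools of a genotype. Fos was undetected on 3 and Jun on 7 of these arrays, whose values have no firm order. The next highest pair, Fos with Ier3, had r = 0.672 (permutation p = 0.0186, adjusted p = 0.234), and none of the remaining pairs had a lower adjusted p of r. The granulosa and cumulus sum gave r = 0.0985 with Fos (permutation p = 0.764, adjusted p = 0.997) and 0.329 with Jun (adjusted permutation p = 0.833). These depended on how they were taken. After each genotype's mean was subtracted, r with the sum was 0.394 for Fos and 0.649 for Jun. Without the 2 arrays farthest from the median of the sum it was 0.514 and 0.707, and without the 2 farthest in the gene itself 0.235 and -0.195.

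**Figure D2:**
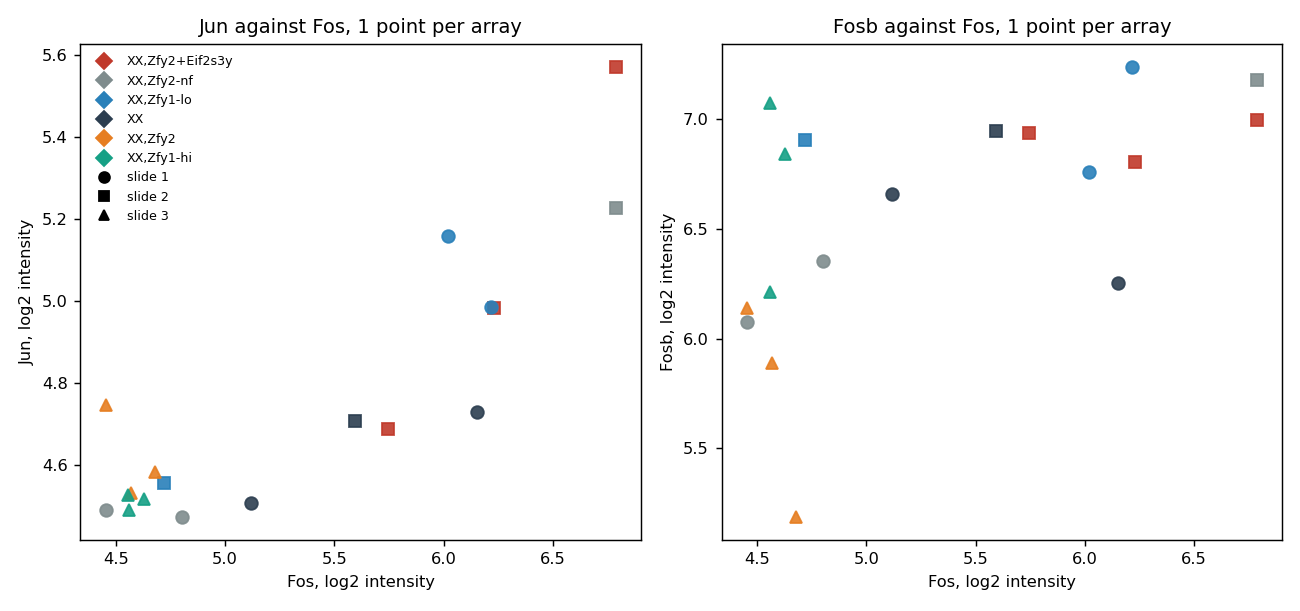
Log2 intensity of Jun (left) and of Fosb (right) against that of Fos on the same array, 1 point per array, with colours for the 6 genotypes and shapes for the 3 slides. Jun tends to rise with Fos over the 12 batch 1 arrays (r = 0.880), but most of these Jun values are undetected. The batch 2 arrays (triangles) sit at the low end of Fos in both panels but span 5.19 to 7.07 in Fosb.

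Fosb, a close relative of Fos, was detected on all arrays, batch 2 included. It measured 6.99, 6.80 and 6.94 in XX,Zfy2+Eif2s3y, 6.76, 7.24 and 6.91 in XX,Zfy1-lo, 6.35, 6.07 and 7.18 in XX,Zfy2-nf and 6.94, 6.25 and 6.66 in XX. In batch 2 it measured 6.14, 5.19 and 5.89 in XX,Zfy2 and 6.84, 6.21 and 7.07 in XX,Zfy1-hi. The 3 XX,Zfy2 arrays all lay below the 3 XX,Zfy1-hi arrays, the nearest values being 6.14 and 6.21, and 2 of them, at 5.19 and 5.89, were the lowest Fosb values of the series. Its correlation with Fos in batch 1 was r = 0.592 (permutation p = 0.0448, adjusted p = 0.234).

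Ier3 measured 5.67, 5.13 and 5.67 in XX,Zfy2+Eif2s3y, 4.81, 5.40 and 4.53 in XX,Zfy1-lo, 4.90, 4.56 and 5.21 in XX,Zfy2-nf and 5.05, 4.71 and 4.39 in XX. In batch 2 it measured 5.09, 4.85 and 4.60 in XX,Zfy2 and 4.67, 4.46 and 4.60 in XX,Zfy1-hi. It was detected on 3 of 3 arrays in XX,Zfy2+Eif2s3y, 2 of 3 in XX,Zfy2, XX,Zfy1-lo and XX,Zfy2-nf, 1 of 3 in XX and 0 of 3 in XX,Zfy1-hi. XX,Zfy2+Eif2s3y had the 2 highest values of the series, but its replicate 2 lay below 1 control array, the slide 2 array of XX,Zfy2-nf.

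The other 3 genes were bright and even. Egr1 stayed between 10.18 and 10.75 over all 18 arrays, with a pooled SD of 0.141, larger than that of 12.8% of the probes tested. Its means were 10.61 ± 0.12 in XX,Zfy2+Eif2s3y, 10.47 ± 0.02 in XX,Zfy2, 10.24 ± 0.08 in XX,Zfy1-hi, 10.64 ± 0.07 in XX,Zfy1-lo, 10.52 ± 0.24 in XX,Zfy2-nf and 10.38 ± 0.18 in XX (SD, n = 3 each), and each genotype overlapped the next when the 6 were ordered by mean. The brightness of a probe cannot be set against that of another, so these values do not rank Egr1 above Fos in amount.

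Dusp1 ranged from 9.56 to 10.33. Among the immediate early gene probes tested it had the smallest spread among replicates, a pooled SD of 0.114. This exceeded only 5.07% of all probes tested. It averaged 9.92 ± 0.08 in XX,Zfy2+Eif2s3y, 9.86 ± 0.02 in XX,Zfy2, 10.19 ± 0.12 in XX,Zfy1-hi, 10.12 ± 0.14 in XX,Zfy1-lo, 10.15 ± 0.11 in XX,Zfy2-nf and 9.75 ± 0.16 in XX (SD, n = 3 each). Every array of XX,Zfy1-hi, XX,Zfy1-lo and XX,Zfy2-nf lay above every XX array. Btg2 separated the batches: it averaged 8.55 ± 0.19 in XX,Zfy2 and 8.46 ± 0.15 in XX,Zfy1-hi, between 8.37 and 8.75 on single arrays, and 9.12 ± 0.11 in XX,Zfy2+Eif2s3y, 8.98 ± 0.19 in XX,Zfy1-lo, 9.22 ± 0.04 in XX,Zfy2-nf and 9.02 ± 0.16 in XX (SD, n = 3 each). The lowest batch 1 value of Btg2 was 8.77, in XX,Zfy1-lo, just above the highest of batch 2. How many of all probes part the batches in this way was not counted. Groups did not overlap for 39% of all probes between XX,Zfy2 and XX, and for 31.6% between XX,Zfy1-hi and XX.

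The comparison of XX,Zfy2+Eif2s3y with the controls, the mean of XX,Zfy2-nf and XX, lay within batch 1. The controls held neither a functional Zfy2 nor an Eif2s3y transgene, so effects of these transgenes cannot be told apart. Ier3 rose by 0.69 (log2, SE 0.20, limma adjusted p = 0.0444), 1.61-fold, with 5.49 ± 0.31 in XX,Zfy2+Eif2s3y (SD, n = 3) and 4.80 ± 0.31 in the controls (n = 6). It was the 1 call among the 7 member probes tested, where 9.14% of all probes tested were called, 4.19% higher and 4.95% lower. Fos lay 0.77 higher in XX,Zfy2+Eif2s3y (SE 0.42, adjusted p = 0.289), Jun 0.39 (SE 0.19, adjusted p = 0.231), Fosb 0.33 (SE 0.26, adjusted p = 0.467) and Egr1 0.16 (SE 0.12, adjusted p = 0.440), and none of them passed the test. Dusp1 (-0.03, adjusted p = 0.891) and Btg2 (0.00, adjusted p = 0.990) had the smallest differences. The median over the 7 probes was 0.33, that of all probes tested -0.01, and 0 of the 7 separated the groups without overlap, against 13.2% of all probes. XX,Zfy2+Eif2s3y lay wholly on slide 2, and with slide as a fixed block the Ier3 change was 0.60 (adjusted p = 0.211), within slide 2 alone 0.36 (0.468), against XX alone 0.78 (0.0501), with the authors' series matrix values 0.29 (0.0531), and with 1 array left out 0.60 to 0.87 (0.0272 to 0.177). The call was lost in the first 4, and without replicate 1 or 3 of XX,Zfy2+Eif2s3y, 1 or 2 of XX,Zfy2-nf, or 2 or 3 of XX. Without the slide 2 array of XX,Zfy2-nf, the change of Fos was 1.13 (adjusted p = 0.0298) and would be called, while within slide 2 alone Fos differed by 0.062 (adjusted p = 0.947).

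The genes whose patterns were most like that of Ier3, over 18 arrays after each slide's mean was subtracted, were Nedd4 (r = 0.870), Pgap6 (0.855), Fam171a1 (0.831), Fbxl20 (0.826) and Spring1 (0.819). These are the highest 5 among all named probes detected on at least 3 arrays and are given as a description.

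Within the controls, XX,Zfy2-nf set against XX gave 0 calls among the 7 probes, where limma called 0.0292% of all probes. An unadjusted p under 0.05 was reached by 1 of the 7, Dusp1, and by 2104 of all 23951 probes. Dusp1 measured 10.15 ± 0.11 in XX,Zfy2-nf against 9.75 ± 0.16 in XX (SD, n = 3 each), a difference of 0.41 (SE 0.12, adjusted p = 0.336). The groups did not overlap for Dusp1 and Btg2, 2 of 7 probes, where 12.1% of all probes did not. Fos lay 0.27 lower in XX,Zfy2-nf (SE 0.49, adjusted p = 0.915), a difference smaller than its spread, and it turned to 0.17 higher without replicate 2 of XX,Zfy2-nf.

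XX,Zfy1-lo against XX, which asked for the effect of the single-copy Zfy1 transgene, also gave 0 calls among the 7 probes (0.00418% of all probes called, 1740 with an unadjusted p under 0.05). Dusp1 was again the 1 member that met the unadjusted threshold. It averaged 10.12 ± 0.14 in XX,Zfy1-lo and 9.75 ± 0.16 in XX (SD, n = 3 each), a difference of 0.37 (SE 0.12, adjusted p = 0.515). It was also the 1 member without overlap, against 11.2% of all probes. Both comparisons share the XX arrays, and the lowest of these, at 9.56, was also the lowest Dusp1 value of the series. The transgene itself was not called in XX,Zfy1-lo against XX. The Zfy1 probe that was undetected on all XX arrays rose by 0.88 (limma adjusted p = 0.0961), and the other differed by -0.07 (0.965). A count of 0 calls here therefore does not mean that the members were unchanged.

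XX,Zfy2 against XX,Zfy1-hi, both on slide 3, set the Zfy2 transgene against the multi-copy Zfy1 transgene, without a control in that batch. Limma called 0 of the 7 probes, where 5.66% of all probes were called, 2.42% higher and 3.24% lower, and 2 of the 7 had an unadjusted p under 0.05. Fosb came nearest, at 5.74 ± 0.49 in XX,Zfy2 and 6.71 ± 0.45 in XX,Zfy1-hi (SD, n = 3 each), a difference of -0.97 (SE 0.30, adjusted p = 0.0675). Dusp1 followed, at 9.86 ± 0.02 in XX,Zfy2 and 10.19 ± 0.12 in XX,Zfy1-hi (difference -0.33, SE 0.12, adjusted p = 0.137). The groups did not overlap for 4 of 7 probes, Fosb, Dusp1, Egr1 and Jun, where 25.7% of all probes did not, and Jun was undetected in both groups. Ier3 was detected on 2 of 3 XX,Zfy2 arrays and undetected on all XX,Zfy1-hi arrays. Its groups overlapped, and its difference of 0.27 (SE 0.24, adjusted p = 0.615) did not pass the test. Fos was undetected in both groups. XX,Zfy2 filled the upper and XX,Zfy1-hi the lower positions of the slide, so genotype and position cannot be told apart there. Without replicate 2 of XX,Zfy1-hi, the Fosb difference was -1.22 (adjusted p = 0.0418) and would be called. Fosb would also be called with slide as a fixed block or with a replicate block (limma adjusted p down to 0.0389). The change in XX,Zfy2+Eif2s3y minus controls differed from that in XX,Zfy2 minus XX,Zfy1-hi for 0 of the 7 probes after adjustment (limma, 0.071% of all probes, 1 of the 7 with an unadjusted p under 0.05).

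**Figure D3:**
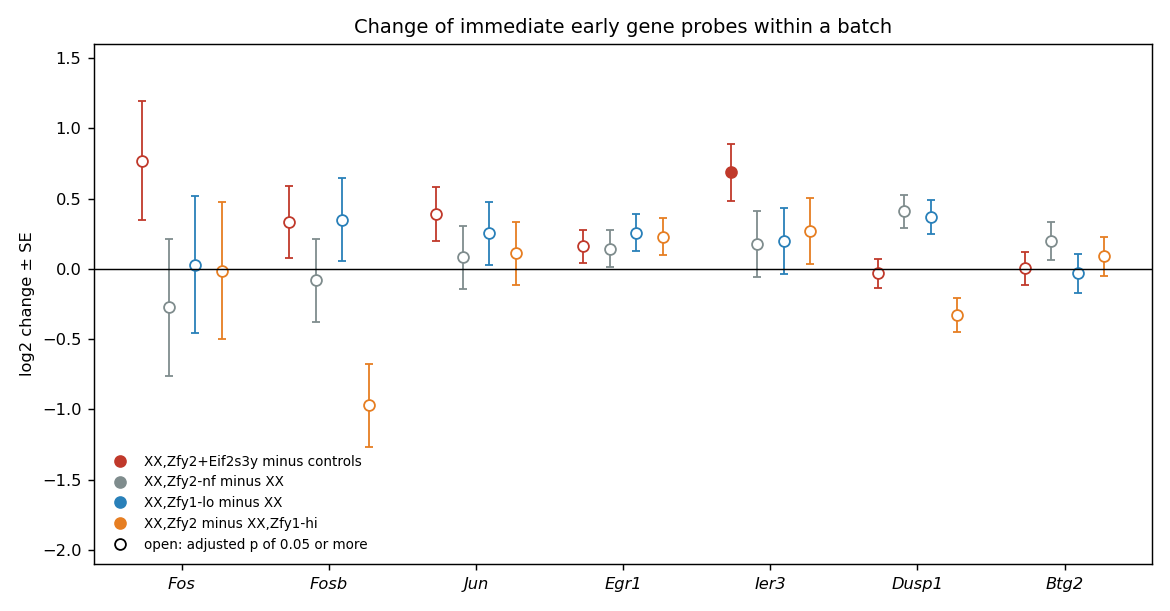
Log2 change ± SE of the 7 tested immediate early gene probes in the 4 comparisons within a batch, with filled points for an adjusted p under 0.05. The 1 filled point is Ier3 in XX,Zfy2+Eif2s3y minus controls (0.69), and the lowest point is Fosb in XX,Zfy2 minus XX,Zfy1-hi (-0.97).

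The batch 2 genotypes can be set against XX only with the batch changing too, so an effect of batch cannot be told apart from one of genotype. XX,Zfy2 lay below XX in Btg2, at 8.55 ± 0.19 against 9.02 ± 0.16 (SD, n = 3 each; -0.47, limma adjusted p = 0.0223), and in Fosb, at 5.74 ± 0.49 against 6.62 ± 0.35 (-0.88, adjusted p = 0.0422). These 2 of 7 probes were called where 22.4% of all probes were, and 11.3% were called lower. The groups did not overlap for 3 of 7, Fos, Fosb and Btg2, against 39% of all probes. XX,Zfy1-hi lay below XX in Btg2, at 8.46 ± 0.15 against 9.02 ± 0.16 (-0.56, adjusted p = 0.0171), and above it in Dusp1, at 10.19 ± 0.12 against 9.75 ± 0.16 (0.44, adjusted p = 0.0274), 2 of 7 where 10.4% of all probes were called, 4.89% higher and 5.47% lower. The groups did not overlap for 3 of 7, Fos, Dusp1 and Btg2, against 31.6% of all probes. Fos was undetected in both batch 2 genotypes and detected on all XX arrays. Its mean was at least 1.70-fold lower in XX,Zfy2 (limma adjusted p = 0.134) and at least 1.73-fold lower in XX,Zfy1-hi (adjusted p = 0.190), and neither was called. Over the alternatives run, the change ranged from -1.34 to -0.45 in XX,Zfy2 and from -1.29 to -0.44 in XX,Zfy1-hi (log2). These bounds, and those given below, set the mean of the brighter group against the mean of the dimmest detected signal on each dim array, or of the probe's own where that was higher. They concern the measured means and leave out the spread among arrays, so the true difference may be smaller. Of 16 oocyte marker probes, 0 rose and 2 fell in XX,Zfy2 against XX, and 0 rose and 3 fell in XX,Zfy1-hi. With median scaling in place of quantile normalization, 0 of the 7 probes were called in either comparison. With position on the slide as a covariate, Fos was a further call in XX,Zfy2 minus XX (-1.34, adjusted p = 0.0342). The same count of 0 came without replicate 1 of XX or 3 of XX,Zfy2 in the first, and without replicate 1 or 2 of XX,Zfy1-hi in the second.

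Other immediate early genes were counted from a list of 40, of which 28 had 39 probes tested. In XX,Zfy2+Eif2s3y against the controls, 5 of the 39 probes rose and 1 fell, where 9.14% of all probes were called, with a median of 0.07 against -0.01 over all probes. The 6 calls became 3 without replicate 1 or replicate 2 of XX,Zfy2+Eif2s3y. Zfp36, whose protein binds AU-rich elements and speeds the decay of mRNAs that include several immediate early transcripts, measured 8.84, 8.95 and 8.84 in XX,Zfy2+Eif2s3y and 6.52 to 7.54 on the 6 control arrays, a rise of 1.68 (SE 0.19, adjusted p = 3.64e-05). Nfkbiz, an inducible nuclear regulator of NF-kB targets, measured 11.67, 11.73 and 11.69 against 10.45 to 10.80 and rose by 1.03 (SE 0.10, adjusted p = 1.4e-05). Neither gene's groups overlapped. Socs3, a feedback inhibitor of cytokine signalling, rose by 1.05 (SE 0.24, adjusted p = 0.0118) and Srf, the serum response factor itself, by 0.44 (SE 0.12, adjusted p = 0.031). Rhob, a small GTPase that the rule for named genes left out, rose by 0.40 (SE 0.11), and the zinc finger gene Klf6 fell by 0.61 (SE 0.18, adjusted p = 0.0392). With slide as a fixed block, Socs3, Srf, Rhob and Klf6 were no longer called.

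In XX,Zfy2 against XX,Zfy1-hi, 2 of these 39 probes rose and 1 fell, where 5.66% of all probes were called, with a median of 0.25 against 0.00 over all probes. Zfp36 measured 8.89, 8.98 and 8.97 in XX,Zfy2 and 6.70, 7.39 and 6.82 in XX,Zfy1-hi and rose by 1.97 (SE 0.22, adjusted p = 4.65e-05). Nfkbiz measured 11.79, 11.86 and 11.94 in XX,Zfy2 and 10.84, 10.80 and 10.55 in XX,Zfy1-hi and rose by 1.13 (SE 0.12, adjusted p = 3.5e-05), and Klf6 fell by 0.83 (SE 0.20, adjusted p = 0.0239). XX,Zfy2+Eif2s3y and XX,Zfy2 share no array, and for Zfp36 and Nfkbiz each of their 6 arrays lay above all 12 others. The share of all probes that do so was not counted, and the list was chosen with earlier results of these data known. XX,Zfy2-nf against XX and XX,Zfy1-lo against XX gave 0 calls among the 39 probes, with an unadjusted limma p under 0.05 for 3 and 2 of them.

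Among 23 probes of other AP-1 and ATF genes, 1 rose and 1 fell in XX,Zfy2+Eif2s3y against the controls, and 0 rose and 1 fell in XX,Zfy2 against XX,Zfy1-hi. Counts this small lay near the shares of all probes called, 9.14% and 5.66%. The call in both was Batf3, a small AP-1 partner that lacks a transactivation domain. It measured 5.41, 4.65 and 5.22 in XX,Zfy2+Eif2s3y against 5.96 to 6.72 on the control arrays and fell by 1.46 (SE 0.21, adjusted p = 0.000347), and it fell by 0.92 in XX,Zfy2 against XX,Zfy1-hi (SE 0.24, adjusted p = 0.0344, up to 0.143 with 1 array left out). Mafg, a small Maf protein, rose by 0.66 in XX,Zfy2+Eif2s3y (SE 0.18, adjusted p = 0.0271), a call lost without any 1 of the XX,Zfy2+Eif2s3y arrays, replicate 3 of XX or replicate 2 of XX,Zfy2-nf.

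Of 58 probes of the signalling genes that lead to immediate early transcription, 2 rose and 4 fell in XX,Zfy2+Eif2s3y against the controls, and 0 rose and 4 fell in XX,Zfy2 against XX,Zfy1-hi. Against 9.14% and 5.66% of all probes called, both counts lay near the background. The falls were the same 4 probes in both, although that of Mapk14 in XX,Zfy2 was lost with any 1 array left out (adjusted p 0.0762 to 0.124). Both probes of Egfr, the receptor through which EGF-like ligands act, changed alike, by -1.79 (SE 0.18) and -1.66 (SE 0.19) in XX,Zfy2+Eif2s3y (adjusted p = 1.56e-05 and 5.94e-05) and by -1.48 and -1.45 in XX,Zfy2 (adjusted p = 0.000537 and 0.00106). Map2k6, a kinase that activates p38, changed by -1.64 (SE 0.21) in XX,Zfy2+Eif2s3y and by -1.45 (SE 0.24) in XX,Zfy2. Mapk14, which encodes p38 alpha, changed by -0.65 (SE 0.12) in XX,Zfy2+Eif2s3y and by -0.52 (SE 0.14) in XX,Zfy2. Besides Srf, the coactivator gene Ep300 rose by 0.54 in XX,Zfy2+Eif2s3y (SE 0.16, adjusted p = 0.0384, between 0.0279 and 0.170 with 1 array left out), a call lost without any 1 of the XX,Zfy2+Eif2s3y arrays, replicate 1 or 3 of XX, or replicate 2 or 3 of XX,Zfy2-nf.

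Relatives of Dusp1 and Btg2 were read the same way. Of all probes, 9.14% were called in XX,Zfy2+Eif2s3y against the controls and 5.66% in XX,Zfy2 against XX,Zfy1-hi. Of 17 probes of other dual-specificity phosphatases, 4 rose and 1 fell in XX,Zfy2+Eif2s3y (3 calls in all without replicate 2 or 3 of XX,Zfy2+Eif2s3y, 3 of XX or 3 of XX,Zfy2-nf) and 2 rose and 0 fell in XX,Zfy2 against XX,Zfy1-hi (1 call without replicate 1 of XX,Zfy2, or 2 or 3 of XX,Zfy1-hi). Dusp9 was undetected on all 6 control arrays and on all 3 XX,Zfy1-hi arrays, and was at least 1.63-fold higher in XX,Zfy2+Eif2s3y and at least 1.13-fold higher in XX,Zfy2, where 2 of 3 arrays detected it. It was detected on 5 arrays and passed the filter only through these genotypes, so its 2 calls are given as a description. Of the 4 Dusp4 probes called in XX,Zfy2+Eif2s3y, 3 rose, by 1.17 (adjusted p = 0.000338), 0.59 (0.0363) and 0.59 (0.0495). The remaining 1, undetected on all 3 XX,Zfy2+Eif2s3y arrays and detected on 2 of 6 control arrays, was at least 1.03-fold lower. It was detected on 3 arrays, 2 of XX,Zfy2-nf and 1 of XX,Zfy1-lo. As it passed the filter only through these, its call is given as a description. The smaller rises were lost when single arrays were left out, with adjusted p up to 0.146 and 0.220. Of 12 probes of Btg2's relatives in the Btg and Tob family, 0 were called in XX,Zfy2+Eif2s3y (limma, 2 with an unadjusted p under 0.05, and up to 2 called with 1 array left out), and Btg4, which recruits deadenylases in maturing oocytes, rose by 0.51 in XX,Zfy2 against XX,Zfy1-hi (SE 0.13, adjusted p = 0.0279, between 0.0677 and 0.0821 with any 1 array left out). Btg4 differed by -0.35 in XX,Zfy2+Eif2s3y against the controls, without overlap (adjusted p = 0.0625), and by -0.87 in XX,Zfy1-hi against XX, with the batch changing too (adjusted p = 0.000567).

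Heat shock genes and cell type markers were read beside these lists. Of all probes, 4.19% were called higher and 4.95% lower in XX,Zfy2+Eif2s3y against the controls. In XX,Zfy2 against XX,Zfy1-hi these shares were 2.42% and 3.24%. Of 17 heat shock probes, 7 rose and 0 fell in XX,Zfy2+Eif2s3y and 3 rose and 0 fell in XX,Zfy2, led by Hspb1, a small heat shock protein (1.71, SE 0.18, in XX,Zfy2+Eif2s3y and 1.50, SE 0.20, in XX,Zfy2). The 7 calls became 3, 4 and 3 without replicates 1, 2 and 3 of XX,Zfy2+Eif2s3y. Hspa1a, among the calls of both comparisons, was detected on 5 arrays. It passed the filter only through XX,Zfy2+Eif2s3y and XX,Zfy2, so its 2 calls are given as a description. The summed intensity of heat shock genes was 20864 to 21243 in XX,Zfy2+Eif2s3y and 15299 to 19282 in the controls, and 17577 to 18672 in XX,Zfy2 and 15373 to 16068 in XX,Zfy1-hi. Of 18 granulosa and cumulus probes, 0 rose and 3 fell in XX,Zfy2+Eif2s3y, where Cyp11a1, the enzyme that starts steroid synthesis, fell by 1.63 (SE 0.21), Col4a1 fell by 0.58 and Ptgs2, undetected on all 3 XX,Zfy2+Eif2s3y arrays, was also called lower, and 0 rose and 1 fell in XX,Zfy2 against XX,Zfy1-hi, Cyp11a1 by 1.68 (SE 0.24). The median over the 18 probes in XX,Zfy2+Eif2s3y was 0.26, above 0, against -0.01 over all probes, and the 3 calls became 1 without replicate 3 of XX,Zfy2+Eif2s3y. Of 16 oocyte marker probes, 0 rose and 1 fell in XX,Zfy2+Eif2s3y, Figla by 0.68, a call lost without replicate 3 of that genotype. Of 9 theca and stroma probes and of 6 blood, immune and endothelial probes, 0 were called by limma in either comparison, and an unadjusted p under 0.05 was met by 1 and 0 probes in XX,Zfy2+Eif2s3y and by 2 and 1 in XX,Zfy2. Beyond the correlations given for Fos and Jun, the part of these markers in the results above was not tested.

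**Figure D4:**
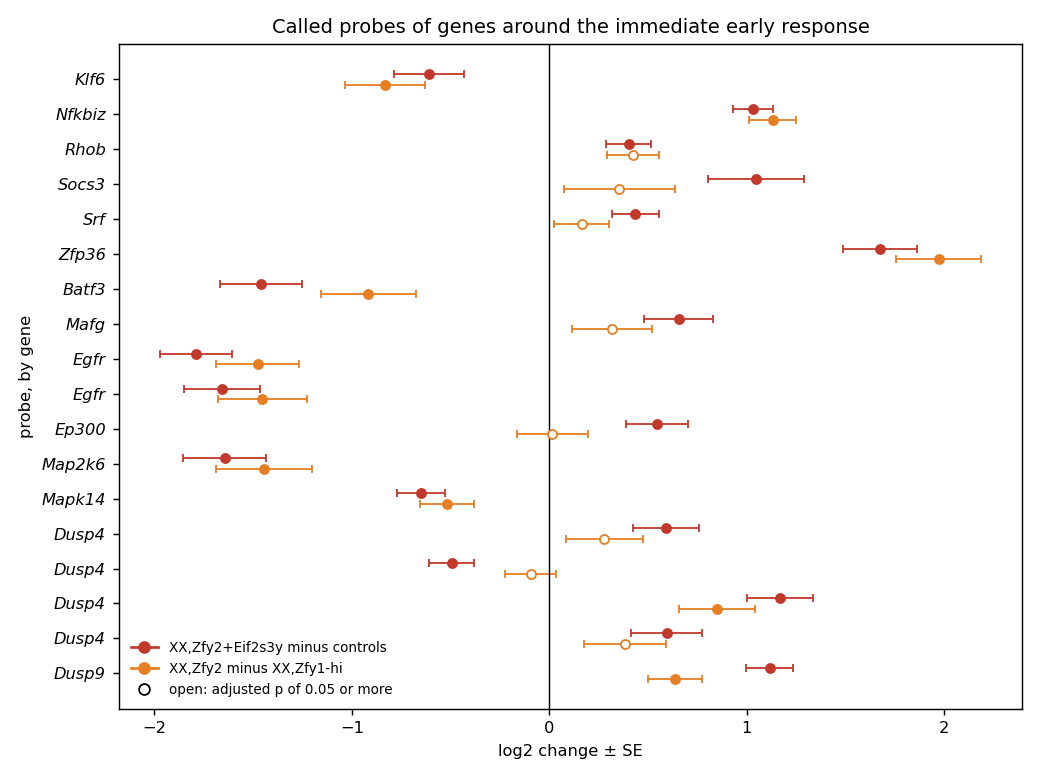
Log2 change ± SE of probes of other immediate early, AP-1, signalling and dual-specificity phosphatase genes called in at least 1 of 2 comparisons that share no array, XX,Zfy2+Eif2s3y minus controls and XX,Zfy2 minus XX,Zfy1-hi, with filled points for an adjusted p under 0.05. Zfp36 and Nfkbiz lie right of 0 and Batf3, Egfr and Map2k6 left of 0 in both.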

How the data were processed

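RNA of 18 oocyte pools was measured on Illumina bead arrays. The deposited table held the bead intensity of 45281 probes and a detection p-value for each probe on each array, per the file headers. A deposited series matrix held intensities normalized by the authors, with nearly equal medians. GenomeStudio is named in the submitters' processing notes without a version, and the normalization method is not given in the sources used here. Each array's signal followed its own detection p-values at all but 0 to 1 places, and those of any other array broke the order at 15260 places or more.

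The intensities were corrected with neqc of limma 3.58.1 in R 4.3.3 (offset 16, background from detection p-values, quantile normalization over 18 arrays). A probe was tested if its detection p was under 0.05 on at least 3 arrays, which let 7 of the 11 member probes through. One limma model with 6 group means (12 residual degrees of freedom, no block) gave 7 two-sided contrasts, adjusted by Benjamini-Hochberg over all 23951 probes and called at an adjusted p under 0.05. An exact test of 3 arrays against 3 cannot go below 0.1, so the calls rest on the pooled spread. The number of arrays limits the precision. Gene names came from the platform annotation, in which 34885 probes had 1 symbol, 18 several and 10378 none. The fit was tested on simulated data, but the outcome is not given here and no result rests on it.

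The members and the other gene lists were chosen with earlier results of these data known. All members were named. From the other lists, up to 4 genes per direction with the smallest p among those called within a batch were named, with Rhob named after its value was seen, and for the 1 member called within a batch the 5 genes most correlated with it. Alternatives were the series matrix values, median scaling, an offset of 50, other filters, 1 probe per gene, slide, replicate and position terms, single slides or batches, XX as the only control, and each replicate left out.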

Additional observations from a re-analysis of the deposited data

Results flagged for a closer look

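Fosb had a change that differed between the 2 comparisons holding a Zfy2 transgene, by an interaction contrast. Its change in XX,Zfy2+Eif2s3y minus the controls (0.33, SE 0.26) exceeded that in XX,Zfy2 minus XX,Zfy1-hi (-0.97, SE 0.30) by 1.30 (log2, SE 0.39, limma's unadjusted p under 0.05). This did not pass the correction over all probes (adjusted p = 0.467), and 17 of 23951 probes did, 0 of them among the 7 immediate early gene probes. The 3 XX,Zfy2+Eif2s3y arrays, at 6.80 to 6.99, lay within the range of the controls, 6.07 to 7.18, and the 3 XX,Zfy2 arrays lay below all 3 XX,Zfy1-hi arrays. The references differ, controls in one comparison and XX,Zfy1-hi in the other, and the comparisons lie in different batches, so genotype, reference and batch cannot be told apart. Leaving out 1 array at a time gave 1.03 to 1.55, with adjusted p from 0.212 to 0.758.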

How the results depend on the processing

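In XX,Zfy2+Eif2s3y minus controls the 1 member called, Ier3, became 0 members with the authors' series matrix values, with no filter, with probes detected on all 18 arrays, with slide as a fixed block, with the replicate block, within slide 2, within batch 1 and against XX alone, and 2 members (Ier3, and Jun at 0.53, adjusted p = 0.0495) with position on the slide as a covariate. Leaving out 1 replicate gave 0 to 2 calls. The adjusted p of Ier3 was 0.0531 with the series matrix, 0.0760 without a filter, 0.0530 with the replicate block and 0.0870 within batch 1, and 0.0272 to 0.177 with 1 replicate left out. It was lost without replicate 2 or 3 of XX, 1 or 2 of XX,Zfy2-nf, and 1 or 3 of XX,Zfy2+Eif2s3y. In XX,Zfy2 minus XX,Zfy1-hi the count of 0 became 1, Fosb, with slide as a fixed block (adjusted p = 0.0496) and with the replicate block (0.0389), and was 0 to 1 with 1 replicate left out. Across batches, the 2 calls of XX,Zfy2 minus XX became 1 with the series matrix, 0 with median scaling, 1 with an offset of 50, 1 with no filter, 3 with position on the slide as a covariate (Fos added) and 0 to 1 with 1 replicate left out, and the 2 of XX,Zfy1-hi minus XX became 0 with median scaling and 0 to 2 with 1 replicate left out. Same-numbered arrays showed little shared deviation (45 pairs, r = -0.15 to 0.19, 2 of them over 0.1), and the main model did not pair them. Replicate numbers were spread unevenly over slides, so this check cannot exclude a pairing. The replicate block changed no other member call, and XX,Zfy2-nf and XX,Zfy1-lo against XX kept 0 member calls in all alternatives run.

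Signs turned only for changes that were not called. In XX,Zfy2+Eif2s3y minus controls, Btg2 (0.00) was -0.090 with slide as a fixed block, -0.097 within slide 2 and -0.0015 with the position covariate, Fosb (0.33) was -0.15 within slide 2, and Dusp1 (-0.03) was 0.0039 with the position covariate and 0.17 against XX alone. Against XX, slide 2 holds 1 XX,Zfy2-nf, 1 XX,Zfy1-lo and 1 XX array and slide 1 holds 2 of each. In XX,Zfy2-nf minus XX, Jun (0.08) was -0.14 and Egr1 (0.14) -0.021 within slide 1, and Fos (-0.27) was 1.19 and Fosb (-0.08) 0.23 within slide 2. In XX,Zfy1-lo minus XX, Btg2 (-0.03) was 0.0067 within slide 1, and within slide 2 Fos (0.03) was -0.87, Fosb (0.35) -0.039, Jun (0.25) -0.15 and Ier3 (0.20) -0.52. With the position covariate, Jun (0.11) was -0.31 and Ier3 (0.27) -0.0056 in XX,Zfy2 minus XX,Zfy1-hi, and Jun (-0.14) was 0.15 and Ier3 (-0.14) 0.043 in XX,Zfy1-hi minus XX.

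With 1 replicate left out, the ranges that crossed 0 were, for Btg2, -0.050 to 0.064 in XX,Zfy2+Eif2s3y minus controls, -0.11 to 0.073 in XX,Zfy1-lo minus XX, -0.013 to 0.18 in XX,Zfy2 minus XX,Zfy1-hi and -0.17 to 0.016 in the difference of those 2 comparisons with a Zfy2 transgene, for Dusp1 -0.078 to 0.0038 in XX,Zfy2+Eif2s3y, for Fos -0.25 to 0.50 in XX,Zfy1-lo minus XX, -0.070 to 0.042 in XX,Zfy2 minus XX,Zfy1-hi and -0.99 to 0.17 in XX,Zfy2-nf minus XX, for Fosb -0.093 to 0.34 in XX,Zfy1-hi minus XX and -0.40 to 0.15 in XX,Zfy2-nf minus XX, for Ier3 -0.30 to 0.024 in XX,Zfy1-hi, -0.048 to 0.39 in XX,Zfy1-lo and -0.034 to 0.29 in XX,Zfy2, each minus XX, and for Jun -0.097 to 0.018 in XX,Zfy2 minus XX and -0.17 to 0.21 in XX,Zfy2-nf minus XX. Over all probes, calls ranged from 276 (within slide 2) to 2575 in XX,Zfy2+Eif2s3y minus controls (2188 as reported), 0 to 15 in XX,Zfy2-nf minus XX (7), 0 to 7 in XX,Zfy1-lo minus XX (1), 445 to 1590 in XX,Zfy2 minus XX,Zfy1-hi (1355), 2828 to 5601 in XX,Zfy2 minus XX (5366), 1149 to 2771 in XX,Zfy1-hi minus XX (2482) and 5 to 26 in the difference (17). Only slide 2 holds XX,Zfy2+Eif2s3y, so slide 1 alone gave no value there, and the slide random block had a correlation near 0 (0.00304). Fos, Jun and Ier3 lay near the detection limit, and the low signal limits what can be read from them.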
